A study of Arabidopsis thaliana with 7 samples.

Results

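The 5 activator-type auxin response factor (ARF) genes of Arabidopsis thaliana, ARF5 (MONOPTEROS, MP), ARF6, ARF7 (NPH4), ARF8 and ARF19, were compared between wild-type and bdl embryos at the 8-cell stage. They were taken by probe set identifier from an array of 27826 probe sets with 1 per locus (AT1G19850_at, AT1G30330_at, AT5G20730_at, AT5G37020_at and AT1G19220_at, in the order above). The group was chosen with earlier results of these data known. All 5 had a probe set on the array. None was called changed in bdl by limma at an adjusted p under 0.05, the threshold for calling a gene changed throughout. Among all genes 1.76% were called. Transcript levels came from 7 one-colour arrays, of which 4 held wild-type Col-0 RNA and 3 held RNA of BODENLOS (bdl, IAA12) mutants in the same Columbia background. Each array carried RNA from a pool of isolated embryos. The labels do not state whether the bdl embryos were homozygous, and the growth protocol speaks of selecting transgenic seed but leaves the presence of a transgene in these embryos unstated. Separate harvests for the replicates are not stated, so the p-values reflect the spread between these arrays, which may be technical.

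ARFs are transcription factors that bind auxin response elements in promoters. Members of the activator class carry a glutamine-rich middle region and switch on auxin-responsive genes, while Aux/IAA proteins such as BODENLOS bind them through a shared C-terminal domain and recruit TOPLESS corepressors. Auxin joins Aux/IAA proteins to TIR1/AFB receptors and so leads to their breakdown, and the bdl mutation makes BODENLOS resistant to that breakdown. The mutant is therefore known as a block on ARF activity at the protein level, and the comparison here asks whether the transcripts of the activators themselves differ. ARF5 patterns the embryo axis and the vascular tissue, ARF7 and ARF19 are best known from phototropism and lateral root formation, and ARF6 and ARF8 act in flower maturation and are targets of the microRNA miR167.

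The arrays were alike in scale, with median intensities of 8.44 to 9.37. IAA12 itself was higher in bdl, with log2 intensities of 7.08 to 7.38 on the wild-type arrays and of 8.75 to 8.90 on the bdl arrays. The embryo identity of the samples was visible in WOX2 and WOX8, homeobox genes of the early apical and basal lineages, which lay at a log2 intensity of 9.82 to 10.32 and 8.69 to 8.94 over all arrays. Of 6 early embryo markers 2 fell, PDF1, an epidermal protein gene, by 2.83 on the log2 scale and DRN, an AP2 factor of the apical embryo, by 1.99. Over all genes 0.859% fell. All 6 differences were below 0, with a median of -0.51, where 14398 of all 27826 genes were below 0. WOX9, which also had an unadjusted p under 0.05, was at -0.82 ± 0.18 (SE; limma, adjusted p = 0.088). Every bdl array of WOX9 lay below every wild-type array, and it was called in 2 alternative settings. Markers of other seed tissues and of pollen were uneven. The summed intensity of 12 pollen markers ranged from 57.4 to 808 on wild-type arrays and from 57.7 to 338 on bdl arrays, that of 12 seed coat markers 102 to 186 and 49.1 to 118, and that of 9 endosperm markers 202 to 346 and 111 to 214. None of these 33 markers passed by limma, and 5 of them had an unadjusted p under 0.05, where 10.7% of all genes did. STK, an ovule and seed coat MADS-box gene, had a log2 difference of -1.72 and TT1, a seed coat zinc finger gene, of 0.77. SUC5, a sucrose carrier of the endosperm, was at -0.93 and FIS2, a Polycomb gene of the endosperm, at 0.35. Of the 12 pollen markers 10 were below 0, with a median of -0.45, and the lowest was VGDH1, a pectin methylesterase gene of pollen tubes, at -1.62. The sperm cell genes GEX2 and HAP2, which had the smallest p of that list, were the other two, at 0.73 and 0.96. HAP2 was at 0.42 without bdl array 2 and at 0.15 on the 2 arrays per genotype with the least pollen signal. In pooled RNA of whole embryos, fewer cells of a type and less RNA per cell cannot be told apart.

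ARF5 is the activator with the best known role at this stage. Its intensity was 525, 492, 545 and 519 on wild-type arrays 1 to 4, and 478, 408 and 479 on bdl arrays 1 to 3. The bdl arrays all lay below the wild-type arrays, with a gap of only 0.04 on the log2 scale between the nearest arrays. The mean log2 intensity was 9.02 ± 0.06 (SD, n = 4) in wild type and 8.83 ± 0.13 (SD, n = 3) in bdl. The log2 difference, bdl minus wild type, was -0.20 ± 0.17 (SE; limma, adjusted p = 0.769), and its 95% interval, not adjusted for the number of genes, ran from -0.58 to 0.19. As a ratio of bdl to wild type, that interval spans 0.669 to 1.14. At this SE a log2 difference of 0.85 or more would have been called. The separation of the arrays is a feature that 11.2% of all genes share, and 5.53% were separated with bdl lower.

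**Figure D1:**
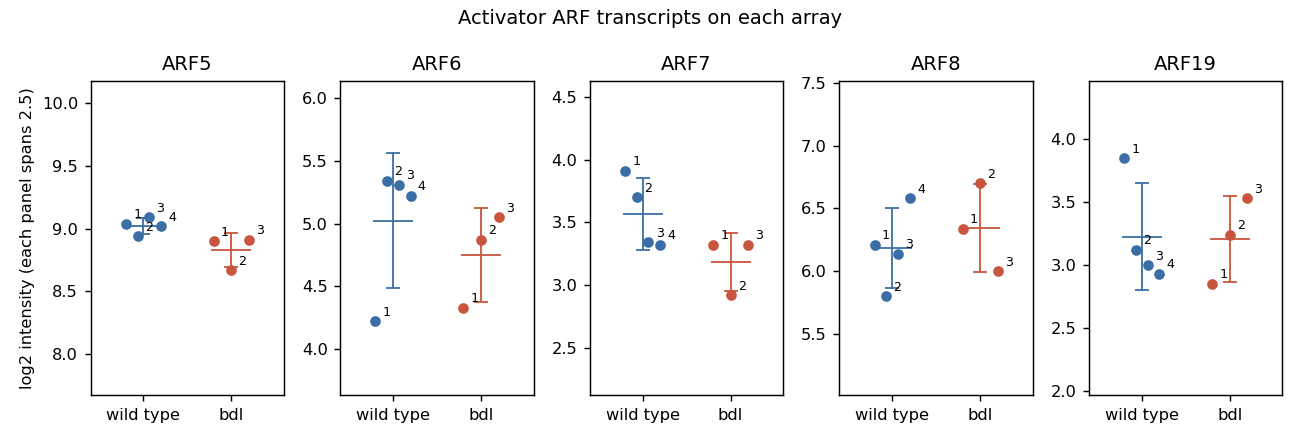
Log2 intensity (vertical axis) of ARF5, ARF6, ARF7, ARF8 and ARF19 on each wild-type array (blue, n = 4) and bdl array (red, n = 3). Points carry the replicate number, the horizontal bar is the mean and the whiskers are 1 SD. The axes start at different levels but share one span. ARF5 is the tightest of the 5, and ARF6 on wild-type array 1 lies far below the other wild-type arrays.

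ARF7, the phototropism regulator, had the most negative difference of the 5. Its intensity was 15.1, 13.0, 10.1 and 9.97 on wild-type arrays 1 to 4, and 9.97, 7.56 and 9.96 on bdl arrays 1 to 3. The bdl arrays again did not exceed any wild-type array, but wild-type array 4 and bdl array 1 met at a log2 intensity of 3.32. The log2 difference was -0.38 ± 0.22 (SE; limma, adjusted p = 0.627; 95% interval -0.90 to 0.13). ARF19, the nearest relative of ARF7 and its partner in lateral root formation, had intensities of 14.4, 8.69, 7.98 and 7.63 in wild type and 7.23, 9.43 and 11.6 in bdl. The ranges of the genotypes overlapped over most of their length, and the log2 difference was -0.02 ± 0.28 (SE; limma, adjusted p = 0.992; 95% interval -0.67 to 0.64). The direction for ARF19 turned in 4 of 20 alternative settings, with differences of -0.23 to 0.37, so no direction can be given. Wild-type array 1 held the highest value of both ARF7 and ARF19. Without it the differences were -0.27 and 0.19.

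The mean log2 intensity of ARF19 (3.22 in wild type and 3.21 in bdl) and of ARF7 in bdl (3.18) lay close to the median over all probe sets, 3.17. Detection calls were not used here, so how far these levels exceed background is not known, and a change in a dim gene can be understated. Both lay above the 25th percentile of 1.85. Because probes differ in their response, these intensities do not rank the 5 transcripts by abundance.

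ARF6 and ARF8, the pair regulated by miR167, did not pass either. ARF6 had intensities of 18.6, 40.6, 39.6 and 37.2 in wild type and 20.2, 29.2 and 33.0 in bdl. Array 1 was the lowest in both genotypes, and the genotypes overlapped. The log2 difference of ARF6 was -0.27 ± 0.33 (SE; limma, adjusted p = 0.85; 95% interval -1.03 to 0.48). Without wild-type array 1 it was -0.54 (adjusted p = 0.512), and without bdl array 1 it was -0.07. With both arrays numbered 1 left out, a setting chosen after the values were seen, it was -0.33 ± 0.21 (SE; limma, adjusted p = 0.759).

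ARF8 was the only member with a higher mean in bdl. Its intensities were 74.2, 55.6, 70.7 and 95.5 in wild type and 81.0, 104 and 64.1 in bdl, so the genotypes overlapped. The log2 difference was 0.17 ± 0.25 (SE; limma, adjusted p = 0.881; 95% interval -0.42 to 0.75). The direction rested on bdl array 2: without it the difference was -0.01. It was also -0.01 on the 2 arrays per genotype with the least pollen marker signal, a setting chosen after the values were seen. The highest ARF8 values, on wild-type array 4 and bdl array 2, stood on the arrays with the highest pollen marker mean of each genotype (4.59 and 3.56 on the log2 scale). Wild-type array 2, with a pollen mean of 3.33, had the lowest ARF8 value. With the pollen mean as a covariate the ARF8 difference was 0.25 and that of ARF6 -0.18, and with the seed coat mean they were 0.15 and -0.42.

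Precursor loci of miR167 were on the array, although mature microRNAs were not measured. None of 4 loci passed by limma, and 1 had an unadjusted p under 0.05, where 10.7% of all genes did. MIR167B had log2 intensities of 1.93, 4.67, 3.84 and 3.09 in wild type and 2.58, 1.30 and 1.96 in bdl, a difference of -1.44 ± 0.62 (SE; limma, adjusted p = 0.462). The spread within wild type was wide and the genotypes overlapped. Wild-type array 1 had the lowest level of both MIR167B and ARF6 among the wild-type arrays. Among the bdl arrays, array 1 had the lowest ARF6 (4.33) but the highest MIR167B (2.58). A relation between them was not tested. MIR167C was at -0.47. The bdl means of MIR167B and MIR167C, 1.94 and 1.78, lay near the 25th percentile of all genes, 1.85. MIR167D lay under that percentile in both genotypes. A change in loci this dim could be missed.

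Counted together, 0 of the 5 activator ARFs were called by limma, where 1.76% of all genes were, and 0 had an unadjusted p under 0.05, where 10.7% did. Their median log2 difference was -0.20, beside -0.01 over all genes. The differences of 4 members were below 0 and that of 1 was above, where 14398 of all 27826 genes were below 0. The members were also set against each other. For each of the 10 pairs the log ratio of the members was compared between genotypes by a 2-sided exact permutation test over 35 splits of the arrays. The widest contrast, ARF8 against ARF7, was 0.55 (exact p = 0.257; adjusted p = 0.80 over 10 pairs), and the smallest p, for ARF19 against ARF7, was 0.229 (exact permutation; adjusted p = 0.80). The smallest p this design can give is 0.0286 before adjustment, and a single pair at that p would have an adjusted p of 0.286, so no pair could pass on its own. These tests do not show that the 5 genes behave alike.

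**Figure D2:**
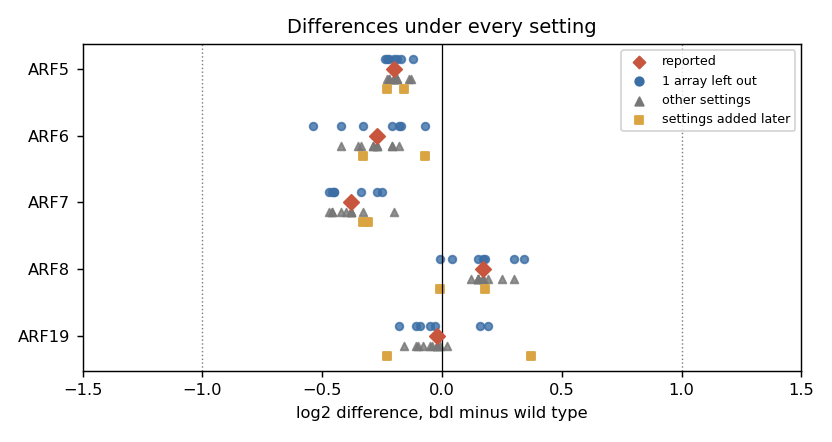
Log2 difference, bdl minus wild type (horizontal axis), of each activator ARF in the reported fit (diamond), with 1 array left out (circles), under other planned settings (triangles) and under 2 settings added later (squares). Dotted lines mark a 2-fold difference. All values lie inside those lines, and ARF8 and ARF19 have points on both sides of 0.

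The 5 genes differed in how steady they were within a genotype. The pooled SD of ARF5 was 0.10 on the log2 scale, while the median was 0.22 over the 1413 genes whose mean log2 intensity was within 1 of its own. Only 5.87% of those genes had a smaller SD. ARF7 was also steady for its level, with an SD of 0.27 beside a median of 0.54, and 8.52% of 6375 genes were below it. The SDs of ARF19 (0.39), ARF8 (0.33) and ARF6 (0.48) lay nearer the middle, with 27.3%, 38.0% and 51.2% of genes of like level below them. These shares describe the 7 arrays and were not tested.

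**Figure D3:**
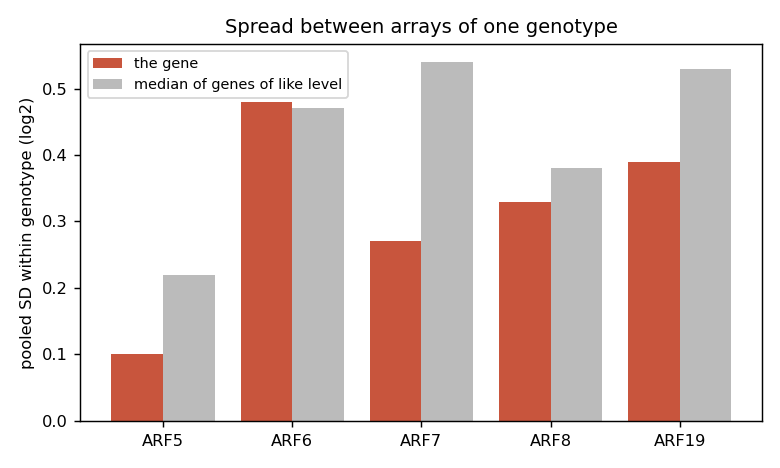
Pooled SD within genotype on the log2 scale (vertical axis, 7 arrays) of each activator ARF (red) beside the median SD of genes whose mean log2 intensity was within 1 of its own (grey). ARF5 at 0.10 and ARF7 at 0.27 stand lowest against the genes of like level, and ARF6 at 0.48 is close to its median of 0.47.

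The intervals, not adjusted for the number of genes, give the size of change in array signal that these arrays leave room for. A change in transcript can be understated in dim genes such as ARF7 and ARF19. The lower end of the 95% interval corresponds to a fall of 1.49-fold for ARF5, 1.86-fold for ARF7, 2.04-fold for ARF6, 1.59-fold for ARF19 and 1.34-fold for ARF8. The upper end corresponds to a rise of 1.14-fold for ARF5, 1.10-fold for ARF7, 1.40-fold for ARF6, 1.56-fold for ARF19 and 1.68-fold for ARF8. A log2 difference would have had to reach 1.15 in ARF7, 1.31 in ARF8, 1.46 in ARF19 and 1.69 in ARF6 to be called at the SE of each gene.

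The other members of the ARF family included genes with wider differences. Of 18 other ARFs, 17 did not pass, 1 fell and 0 rose, while 1.76% of all genes were called. An unadjusted p under 0.05 was found for 10.7% of all genes. Their median log2 difference was -0.06. The gene that fell was ARF3 (ETTIN), a factor of abaxial identity and flower patterning, with log2 intensities of 6.26 to 6.90 on the wild-type arrays and of 4.49 to 5.37 on the bdl arrays, a difference of -1.46 ± 0.27 (SE; limma, adjusted p = 0.0438). ARF3 lost its call when any of the 7 arrays was left out, with differences of -1.63 to -1.19. An unadjusted p under 0.05 was found for 5 of the 18, among them ARF2 (-1.34), ARF10 (-1.79), ARF11 (-0.96) and ARF17 (0.93), genes named after their values were seen. ARF2 was called without wild-type array 4 (differences of -1.60 to -1.18 over the 7 omissions; limma, lowest adjusted p = 0.0483). These 5 genes were picked for a small p, so their values had to lie away from 0. The interval of ARF5, -0.58 to 0.19, overlapped those of ARF10 (-3.13 to -0.45) and ARF11 (-1.83 to -0.08). It did not overlap those of ARF2, ARF3 and ARF17. A difference between ARF5 and these genes was not tested.

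**Figure D4:**
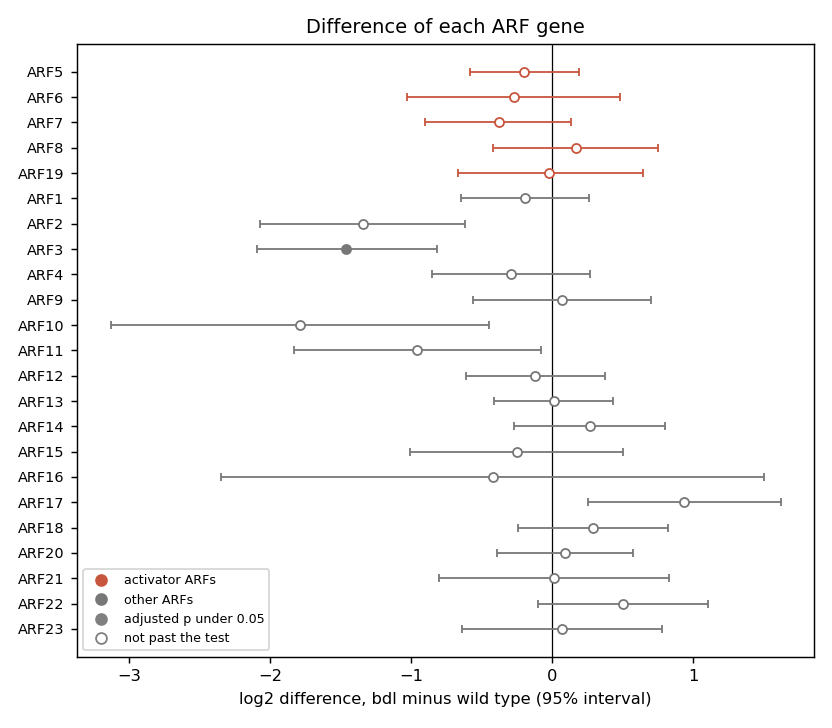
Log2 difference, bdl minus wild type (horizontal axis), with its 95% interval from limma for the 23 ARF genes on the array (4 wild-type and 3 bdl arrays). Red marks activator ARFs, grey the others, and a filled point an adjusted p under 0.05. The 5 activators sit between -0.38 and 0.17, and ARF3 is the only filled point.

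Genes listed as direct or genetic targets of ARF5 held many called genes. The list was chosen with earlier results of these data known, so its counts are descriptive only. It was not split by whether ARF5 raises or lowers a gene. Among 19 targets 9 fell and 1 rose, while 9 were not called. The median log2 difference of the list was -1.52, and over all genes 0.859% fell and 0.902% rose. TMO5, a vascular bHLH gene, had log2 intensities of 5.30, 5.72, 4.66 and 5.14 in wild type and 1.68, 1.76 and 2.44 in bdl, a fall of 3.24 on the log2 scale (SE 0.30; limma, adjusted p = 0.00175). The related bHLH gene T5L1 fell by 3.19, IAA30, which encodes an Aux/IAA protein without the degradation motif, by 4.87, and AHP6, an inhibitor of cytokinin signalling, by 1.88. In each of these 4 genes every bdl array lay below every wild-type array, as in 5.53% of all genes. Those genes were named for their small p, so neither this separation nor a steady call adds support. All 4 kept their calls when any single array was left out. On the 2 arrays per genotype with the least pollen signal TMO5, T5L1 and AHP6 lost theirs, at differences of -2.92, -2.91 and -1.95 (limma, adjusted p = 0.103, 0.0861 and 0.124), as TMO5 and AHP6 did under the replicate block and AHP6 without both arrays numbered 1.

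The remaining targets that fell were WIP4 and NTT, zinc finger genes needed for root initiation (-3.43 and -2.85), ARR7, a cytokinin response regulator (-3.33), TMO3, a cytokinin response factor (-2.40), and DRN, an AP2 factor of the embryo (-1.99). FIL, a YABBY gene of abaxial identity, rose by 1.43. When single arrays were left out, FIL lost its call without wild-type array 2 or 3 or any bdl array (1.33 to 1.57), TMO3 in every omission other than bdl array 1 (-2.82 to -2.08), and NTT without bdl array 1 (-3.21 to -2.59). Targets that did not pass ranged from -1.52 for TMO6, a DOF factor, to 0.36 for ARR15. TMO7, a small bHLH protein gene that moves toward the root founder cell, lay at a log2 intensity of 1.03 to 1.79 on all 7 arrays, with means under the 25th percentile in both genotypes, so that a fall could be missed. On the 2 arrays per genotype with the least pollen signal, with fewer arrays, 2 targets fell.

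**Figure D5:**
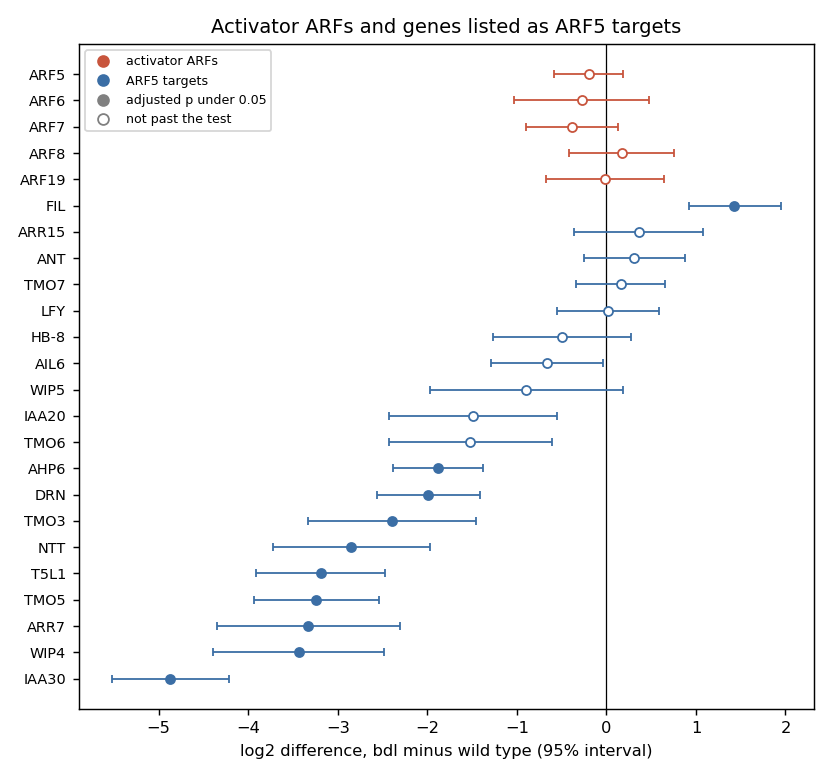
Log2 difference, bdl minus wild type (horizontal axis), with its 95% interval from limma for the 5 activator ARFs (red) and the 19 genes listed as ARF5 targets (blue), ordered by value (4 wild-type and 3 bdl arrays). Filled points passed at an adjusted p under 0.05. IAA30 lies lowest at -4.87 and FIL highest at 1.43, while the interval of every activator includes 0.

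Genes listed as targets of the other activators showed no call, where 1.76% of all genes were called and 10.7% had an unadjusted p under 0.05. Of 8 targets of ARF7 and ARF19, 0 passed by limma and 2 had an unadjusted p under 0.05: IAA19, an auxin-induced Aux/IAA gene, at -1.66 ± 0.37 (SE; limma, adjusted p = 0.089), and LBD16, a lateral root initiation gene, at -0.45 ± 0.16 (SE; adjusted p = 0.342). The median of these 8 was -0.07. IAA19 had log2 intensities of 3.41, 4.59, 4.28 and 4.81 in wild type and 2.40, 2.27 and 3.16 in bdl, and it was called without wild-type array 1 (-1.95; limma, adjusted p = 0.0329). LBD16 lay at 1.31 to 1.87 on all arrays, near the 25th percentile of 1.85. Of 7 targets of ARF6 and ARF8, 0 passed and 1, again IAA19, had an unadjusted p under 0.05. GH3.5, an auxin-conjugating enzyme gene, was at -0.40, and the median was -0.32. Of these 15 entries, 6 lay under the 25th percentile in both genotypes.

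Most of the calls among the Aux/IAA genes, whose proteins bind the activators, were lower in bdl. Among 29 measured, 8 fell and 1 rose, 20 were not called, and the median log2 difference was -0.45. Over all genes 0.859% fell and 0.902% rose, with a median of -0.01. This list too was chosen with earlier results of these data known. IAA30 and IAA1 fell by 4.87 and 4.17, and IAA2 and IAA9 by 2.31 and 2.12. With 1 array left out 5 to 7 genes fell: IAA8 (-1.24) lost its call in all 7 omissions, IAA13 (-2.90) in each but that of bdl array 1, and IAA18 (-1.76) without wild-type array 4 or any bdl array. On the 2 arrays per genotype with the least pollen signal 2 fell, IAA30 and IAA1. The gene that rose was IAA12, at 1.59 ± 0.17 (SE; limma, adjusted p = 0.00287). IAA12 lost this call under the replicate block and on the 2 arrays per genotype with the least pollen signal, at differences of 1.53 to 1.68 over the settings other than array omissions.

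Receptors and corepressors of the pathway gave 0 calls by limma, where 1.76% of all genes were called and 10.7% had an unadjusted p under 0.05. Of 6 TIR1/AFB receptor genes, 0 had an unadjusted p under 0.05, and the smallest p belonged to AFB3 (0.37) and AFB1 (-0.13). Of 5 TOPLESS-type corepressor genes, 2 had an unadjusted p under 0.05, TPR3 at 0.60 ± 0.20 (SE; limma, adjusted p = 0.289) and TPR1 at -0.92 ± 0.40 (SE; adjusted p = 0.461). The TPR1 value rested on bdl array 1, at a log2 intensity of 4.60 against 6.38 and 5.94 on the other bdl arrays, and was -0.40 without it. The medians were 0.01 for the receptors and -0.34 for the corepressors.

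Genes for proteins that act with the activators at chromatin also gave 0 calls, beside the same shares over all genes (1.76% called, 10.7% at an unadjusted p under 0.05). Of 6 chromatin remodelling and Mediator genes, 1 had an unadjusted p under 0.05: MED25, a Mediator subunit, at 0.54 ± 0.19 (SE; limma, adjusted p = 0.338). SYD, a remodelling ATPase recruited by ARF5, was at 0.23, and the median was 0.17. Of 5 other partners and kinases, BZR1, a brassinosteroid-response factor that binds ARF6, had an unadjusted p under 0.05. Its log2 intensities were 5.55, 5.72, 5.29 and 5.75 in wild type and 4.43, 4.57 and 4.88 in bdl, a difference of -0.95 ± 0.20 (SE; limma, adjusted p = 0.0775). The genotypes did not overlap, and BZR1 was called after cyclic loess scaling (-1.02; adjusted p = 0.0483) and with an intensity of 10 added before log2 (-0.73; adjusted p = 0.047). BIN2, a kinase that phosphorylates ARFs, was at -0.31.

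Genes with the pattern nearest to each activator were sought by Pearson's r of log2 intensity over the 7 arrays, within the brighter genes (mean log2 intensity over 3.17, the median of all genes). With 13912 genes and 7 arrays, high values of r are found for any pattern, and they describe these arrays only. For ARF5 the 4 nearest were AT4G28010 (r = 0.974), SUVH2, a gene of DNA methylation control (0.971), AT5G50070 (0.965) and NRP1 (0.954), with log2 differences of -0.44, -0.81, -1.44 and -1.20, none of them called. For ARF6 they were AT4G13860 (0.995), KUP10 (0.974) and AT4G34960 (0.973). AT4G13860 and AT4G34960 shared the low value of ARF6 on wild-type array 1. For ARF7 they were AT5G03345 (0.989), AT4G28440 (0.975) and SYNC1, a tRNA synthetase gene (0.971). For ARF8 they were AT2G42860 (0.986), AT2G02170 (0.968) and AT3G49420 (0.961). For ARF19 they were AT5G51150 (0.975), AT1G74240 (0.966) and AT2G46000 (0.961). No ARF, Aux/IAA or listed target was among these 16 genes.

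ARF5 (AT1G19850), ARF6 (AT1G30330) and ARF19 (AT1G19220) lie on chromosome 1, and ARF7 (AT5G20730) and ARF8 (AT5G37020) on chromosome 5. The RefSeq annotation lists 2 transcripts for ARF5, 3 each for ARF6, ARF7 and ARF8, and 1 for ARF19, and a probe set per locus does not tell them apart. In that annotation 3 of the genes overlap a neighbour: ARF5 with AT1G19860, ARF7 with CPN20 and ARF19 with AT1G19210. The position of the probes was not known here, so signal shared with these neighbours was not tested. The log2 differences of the neighbours were 0.52, -0.10 and -0.03, and none was called.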

How the data were processed

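RNA of 8-cell embryos was measured on 7 arrays. The authors deposited 1 table of intensity values, in which each array is a column and each probe set a row. Per the submitters' processing notes RMA was used, without a version. For the chip definition and the genome build the entry is: not given in the sources used here. All values were above 0 and linear, so log2 was taken with no pseudocount or further scaling. The 2 genotypes were set against each other in limma 3.58.1 (R 4.3.3) by lmFit and plain eBayes, 2-sided, with genotype the only term, all 7 arrays and Benjamini-Hochberg adjustment over 27826 genes. The number of arrays limits the precision.

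The members, the 15 gene lists and the tests were chosen with earlier results of these data known. The lists came from general knowledge, and all their 146 loci were on the array. A result for 1 further locus is not reported here, and that locus is left out of the lists and their counts. IAA19, IAA20, IAA30 and DRN stand in more than 1 list. Named genes were the 5 members, IAA12, and from each list the 4 called members of smallest p, or fewer (the 2 of smallest p in a list with no call), and the 4 genes with the highest r to ARF5 and the 3 highest for each other member. Further genes are named where a count came to 5 or fewer, or where a list's called members are given in full (chosen after the values were seen). Names came from a RefSeq table of TAIR10.1, which held 27241 of the loci. On simulated data with 200 changed genes among 27826, the procedure found 7.40% of genes with a simulated log2 change of 1 and 59.5% of those with a change of 2. The simulation used independent normal noise, and the fit of the real data called 490 genes, so these rates may not carry over. Figures were drawn with matplotlib 3.10.9.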

Additional observations from a re-analysis of the deposited data

Results flagged for a closer look

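In 66 checks of the 4 wild-type arrays, 7 found a value far from those of the remaining arrays, and chance alone flags about 1 in 20. ARF6 had a log2 intensity of 4.22 on wild-type array 1, against 5.22 to 5.34 on the others. Genes chosen for their likeness to a member carry its pattern on wild-type array 1. Of those chosen for ARF6, AT4G13860 was at 2.48 there (5.82 to 6.28 on the others) and AT4G34960 at 7.46 (7.98 to 8.04). ARF19, highest on that array, was not itself flagged. Of the genes chosen for ARF19, AT5G51150 was at 6.34 there (4.96 to 5.10) and AT1G74240 at 4.59 (4.19 to 4.26). The mean of the 18 other ARFs was 4.21 on wild-type array 4 (3.98 to 4.01), and that of the 5 other partners and kinases 3.76 on wild-type array 3 (4.03 to 4.08). With 3 arrays, bdl was not checked in this way.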

How the results depend on the processing

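No activator ARF was called under any of 18 planned and 2 added alternatives. The differences of ARF5 (-0.24 to -0.12), ARF6 (-0.54 to -0.07) and ARF7 (-0.47 to -0.20) kept their sign in all 20. ARF19 turned to 0.02 with array weights and 0.37 with both arrays numbered 1 left out, and ranged from -0.18 to 0.19 with 1 array left out. ARF8 turned to -0.01 on the 2 arrays per genotype with the least pollen signal, and ranged from -0.01 to 0.34 with 1 array left out. MIR167C turned to 0.09 on the low-pollen arrays. The count of all called genes, 490, was 188 with the replicate number as a block, 271 with the seed coat mean as a covariate, 181 without both arrays numbered 1, 105 on the low-pollen arrays, and 278 to 374 with 1 array left out. Those settings use fewer arrays or residual degrees of freedom. Under the replicate block the 9 lower and 1 higher ARF5 targets became 4 and 0, the 8 lower and 1 higher Aux/IAA genes 5 and 0, the lower other ARFs 0 and the 2 lower embryo markers (PDF1 and DRN) 1. In the block fit no activator was called, and ARF5 was at -0.20. Deviations of same-numbered arrays from their group means correlated at 0.04 to 0.05, not every array correlated best with its own number, and the numbers were not taken as pairs. With the seed coat mean the higher ARF5 target count was 0 and the lower Aux/IAA count 5. On the low-pollen arrays lower ARF5 targets numbered 2 and higher 0, lower Aux/IAA 2 and higher 0, lower embryo markers 1 and lower other ARFs 0. Without both arrays numbered 1, higher ARF5 targets were 0, lower Aux/IAA 5 and lower other ARFs 0. Lower other ARFs were also 0 with the pollen mean as a covariate and with log2(intensity + 10). In the 10 lists with no call, the activators aside, 1 gene was called with cyclic loess or log2(intensity + 10) (BZR1) and without wild-type array 1 (IAA19). With 1 array left out, higher ARF5 targets were 0 to 1, lower ARF5 targets 8 to 9, lower Aux/IAA 5 to 7, lower other ARFs 0 to 1 (ARF2, without wild-type array 4), and calls in the 10 lists 0 to 1. The cause of these changes was not tested.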
